A study of Mus musculus with 16 samples.

Results

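The effect of RBX on gene expression in the aorta was compared between diabetic and non-diabetic mice. RBX (ruboxistaurin, also LY333531) inhibits protein kinase C beta. For each gene, an interaction was computed as the log2 change with RBX in diabetic mice minus the log2 change with RBX in non-diabetic mice. All 16 arrays of the series entered it. They measured whole aorta from 16 individual mice, 4 in each of 4 groups, with 1 Affymetrix array per mouse. The groups were diabetic mice given RBX (DM_HF_RBX_10wk), diabetic mice without RBX (DM_HF_10wk), non-diabetic mice given RBX (NDM_HF_RBX_10wk) and non-diabetic mice without RBX (NDM_HF_10wk).

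Every mouse, controls included, was APOE-/- and was 18 weeks old after 10 weeks on high fat diet D12079B, begun at 8 weeks. Diabetes had been induced at 6 weeks with streptozotocin (STZ), which kills beta cells. RBX was given with the diet. The sources used here give neither its dose nor glucose or lipid values, nor do they mention a vehicle injection for the non-diabetic mice. The model therefore has insulin loss on top of a genetic and dietary hyperlipidaemia, and no group has normal lipoprotein metabolism. The arrays name 18193 genes through probe sets with 1 gene symbol, and 11042 of these passed a filter on low signal and were tested. The other 7151 genes were not tested.

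Protein kinase C beta is a kinase activated by calcium and diacylglycerol. High glucose raises diacylglycerol in vascular cells, and the resulting kinase activity has been tied to endothelial dysfunction, altered smooth muscle contraction, leukocyte adhesion and oxidant production. An inhibitor of a kinase that diabetes activates can in principle act differently in the diabetic and the non-diabetic vessel, which is the question that the interaction addresses. The aortic wall holds contractile smooth muscle cells in the media, a single layer of endothelium, and an adventitia of fibroblasts, macrophages and fat. In hyperlipidaemic mice it also holds plaques rich in lipid-laden macrophages. Because whole aorta was used, fewer cells of a type and less RNA per cell cannot be told apart in any result given here.

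Several measures of the arrays themselves followed the same 4-group pattern as many genes. The hybridisation control cre, a transcript spiked in at a fixed amount, had a log2 signal of 18.06 ± 0.08 in diabetic RBX, 17.85 ± 0.17 in diabetic, 18.68 ± 0.39 in non-diabetic RBX and 17.49 ± 0.31 in non-diabetic mice (mean ± SD, n = 4 each), a difference of differences of -0.97. The spike bioB had one of -1.17. For Actb, the signal near the 3' end over that near the 5' end, a reading of how far labelled transcripts extend, was on the log2 scale 1.71 ± 0.18 in diabetic RBX, 1.34 ± 0.17 in diabetic, 2.08 ± 0.39 in non-diabetic RBX and 1.04 ± 0.20 in non-diabetic mice, a difference of differences of -0.67. For Gapdh the same ratio had a difference of differences of 0.04. The median log2 signal over all probe sets of an array had one of -0.19. With the cre signal as a covariate in the model, none of the 11042 genes passed for the interaction in limma, the smallest adjusted p being 0.0537, against 1391 at an unadjusted p under 0.05. With the Actb ratio as a covariate 341 genes passed. The part of these array measures and that of the groups in the counts given here cannot be told apart.

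**Figure D1:**
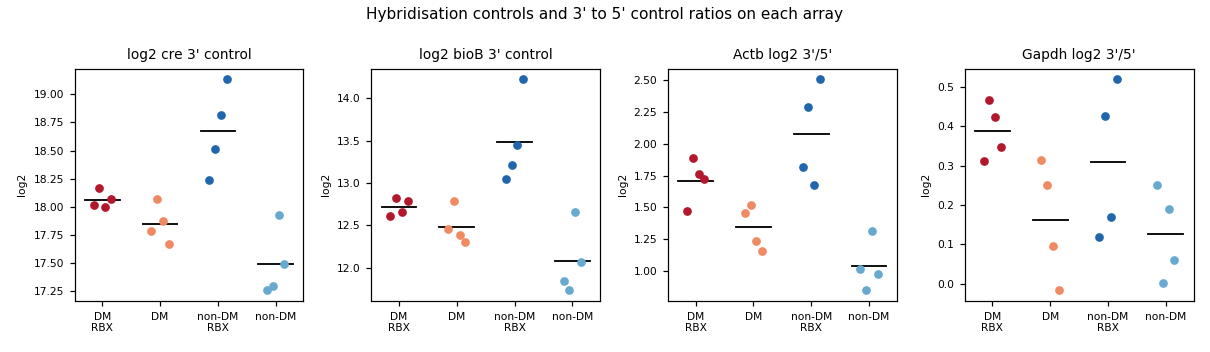
Hybridisation controls cre and bioB (log2 signal) and the log2 3' to 5' ratios of the Actb and Gapdh control probe sets on each of the 16 arrays, by group (DM, diabetic); points are mice and bars are group means. For cre, bioB and the Actb ratio the non-diabetic RBX group has the highest mean and the non-diabetic group the lowest, while the 2 diabetic groups lie between them.

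Arrays of 2 mice stood apart for Ighm, the immunoglobulin heavy chain of B lymphocytes. Its signal was 1175 to 2270 in diabetic RBX, 926 to 1437 in diabetic and 1173 to 1991 in non-diabetic RBX mice, while the non-diabetic mice were at 44845, 52138, 2021 and 1399. In non-diabetic mice 1 and 2 it was therefore far above the other 14 arrays. The other 12 lymphocyte markers on the array summed to 2771 to 3236 in diabetic RBX, 2677 to 3343 in diabetic, 2902 to 5164 in non-diabetic RBX and 2648 to 4207 in non-diabetic mice, with overlap between all groups. Among these markers, all but Cd8a of low signal, 2 of B cells were highest in non-diabetic mice 1 and 2. Cd79b was at 665.4 and 726.6 in them and at most 592.4 elsewhere. Ms4a1 was at 557.2 and 523.3, and at most 485.5 elsewhere. Cd79a was at 367.9 and 416.2 in them, but at 463 in non-diabetic RBX mouse 3. The interaction of Ighm, 2.91, adjusted p = 0.113, did not pass. Without both mice, a choice made after seeing the data, 464 genes passed for the interaction, 444 of them among the 1272 found with all arrays. Over the 1269 of these that were measured the median size was then 0.82 against 0.85 with all arrays, and the median SE 0.24 against 0.21. Contractile smooth muscle genes then had 12 calls and a median of 1.10, interferon response genes 5 and -0.68, macrophage and foam cell markers 3 and -0.61, and fatty acid oxidation genes 2 and -0.87. For all lists described here, calls are given with all 16 arrays.

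At an adjusted p under 0.05, 1272 of the 11042 genes (11.5%) had an interaction. At an unadjusted p under 0.05 there were 3079 (27.9%). The interaction passed with a positive value in 665 genes (6.02%) and with a negative one in 607 genes (5.5%). A positive value means that the log2 change with RBX was higher in diabetic than in non-diabetic mice. The median of all tested genes was -0.06 on the log2 scale. Among the positive genes the median interaction was 0.91, and it exceeded 1 in 294 of them and 2 in 33. Among the negative genes the median was -0.81, and its size exceeded 1 in 169 and 2 in 12. Of these genes 21 positive and 14 negative ones were clones or predicted genes, which are counted and not named. Without diabetic mouse 3 the count was 771, 759 of them among the 1272.

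The interaction came mostly from the non-diabetic side of the design. In the positive genes the median change with RBX was 0.10 in diabetic mice and -0.82 in non-diabetic mice. In the negative genes it was -0.10 in diabetic mice and 0.72 in non-diabetic mice. The change was larger in non-diabetic than in diabetic mice in 641 of the 665 positive genes and in 581 of the 607 negative ones. Over all 11042 genes, called or not, it was larger in non-diabetic mice in 8018. That left 50 genes past the threshold in which the diabetic mice had the larger change. Taken alone, RBX in diabetic mice raised 1 gene (0.00906%) and lowered 4 (0.0362%), with 1014 (9.18%) at an unadjusted p under 0.05. RBX in non-diabetic mice raised 1825 genes (16.5%) and lowered 1669 (15.1%). Both RBX effects enter the interaction, so their counts are parts of it and not separate support for it.

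**Figure D2:**
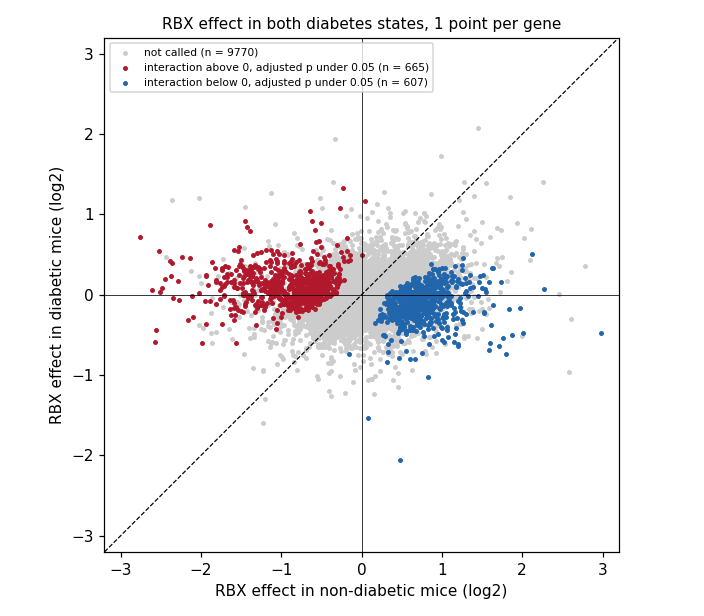
Change with RBX in diabetic mice (log2, vertical axis) against the change in non-diabetic mice (log2, horizontal axis), 1 point for each of the 11042 tested genes. Red and blue points are the 665 genes with a positive and the 607 genes with a negative interaction; they spread along the horizontal axis, and the dashed line marks equal changes in both states.

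Set out by group level, the 4 groups had a crossed order. The non-diabetic RBX mice had the lowest of the 4 group means in 635 of the 665 positive genes, against 3498 of all 11042 genes. The non-diabetic mice had the highest in 585 of them, against 3305 of all genes. The non-diabetic RBX mice had the highest mean in 560 of the 607 negative genes, against 4287 of all genes. The non-diabetic mice had the lowest in 541 of them, against 3627 of all genes. Both diabetic groups thus lay between the non-diabetic groups in most of the positive and negative genes. In 274 of the 665 positive genes (41.2%) every non-diabetic RBX array was below all 12 other arrays, against 353 of all 11042 genes (3.2%). In 174 of the 607 negative genes (28.7%) every non-diabetic RBX array was above all 12 others, against 326 of all genes (2.95%). The call itself favours such an order and such separation, so these counts and shares describe the genes and are not a further test.

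The positive gene with the smallest p was Dtna, which codes for alpha-dystrobrevin, a part of the dystrophin complex that links the cytoskeleton of muscle to the matrix. Its signal, on the linear scale of the deposited values, was 6127, 4806, 4461 and 4861 in diabetic RBX mice and 2962, 3538, 2946 and 3909 in diabetic mice. In non-diabetic RBX mice it was 1968, 1905, 1320.5 and 2087, and in non-diabetic mice 4555, 5661, 4743 and 5722. All 4 non-diabetic RBX values were below the other 12, and the diabetic RBX values were all above those of the diabetic mice. The interaction was 2.12 (SE 0.21, adjusted p = 7.51e-05), from changes of 0.60 in diabetic and -1.52 in non-diabetic mice. The 5 other probe sets of Dtna had interactions of the same sign, between 1.61 and 2.47.

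Itga7, the alpha subunit of a laminin receptor of muscle cells, had signals of 3828, 3276, 3362 and 2782 in diabetic RBX and 3140.3, 2617, 2242 and 2841 in diabetic mice. In non-diabetic RBX mice the signals were 1514, 1748, 2064 and 1679, and in non-diabetic mice 5238, 4999.6, 3788 and 5370.5. The non-diabetic RBX arrays were again lowest without overlap, whereas the diabetic groups overlapped each other. The interaction was 1.76 (SE 0.20, adjusted p = 0.000152). Pgm5, a relative of phosphoglucomutase found at the adhesion sites of muscle, had 7825, 5972, 7277 and 6631 in diabetic RBX and 6319, 5961, 6214 and 6983 in diabetic mice. Its non-diabetic RBX values were 4024, 3577, 3937 and 3840.3, against 8640.3, 8592, 7196 and 8964 in non-diabetic mice. The non-diabetic RBX values lay in a narrow band below all others, and the interaction was 1.23 (SE 0.14, adjusted p = 0.000152).

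Myom1 codes for myomesin, a cross-linker of the myosin filaments of striated muscle. It had 13602, 11113, 13030.3 and 14355 in diabetic RBX and 9099, 7478, 5826 and 6925 in diabetic mice. In non-diabetic RBX mice it had 5742, 5725, 2836 and 5014, and in non-diabetic mice 13664, 13639, 10458 and 12672. Here the diabetic RBX and the non-diabetic mice overlapped at the top, the diabetic mice lay lower, and the non-diabetic RBX mice were below all others. The interaction was 2.27 (SE 0.26, adjusted p = 0.000152), with a change of 0.84 in diabetic mice that did not pass on its own. Enah, a regulator of actin filament growth, had 43995, 34656, 39700 and 30183 in diabetic RBX and 29769, 27312, 19618 and 24138 in diabetic mice. Its values were 15202, 18173, 11688 and 11486 in non-diabetic RBX and 42028, 40211, 32058 and 56332 in non-diabetic mice. All diabetic RBX values were above the diabetic ones, the non-diabetic RBX values were below both, and the interaction was 2.15 (SE 0.25, adjusted p = 0.000159). Sphkap, which tethers protein kinase A, had 1218, 1105, 977 and 958 in diabetic RBX and 862, 1139, 893 and 1152 in diabetic mice. It had 704, 377, 560.4 and 419 in non-diabetic RBX and 2208, 2194, 3618 and 3525 in non-diabetic mice. Both diabetic groups overlapped and lay between the non-diabetic groups, and the interaction was 2.57 (SE 0.31, adjusted p = 0.000164).

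Among the negative genes, Vegfc had the smallest p. It codes for a growth factor that drives the growth of lymphatic vessels. Its signals were 1706, 2124, 2020 and 2253 in diabetic RBX and 2703, 2652, 2444 and 2404 in diabetic mice. In non-diabetic RBX mice they were 3918, 3805, 3749.6 and 3457, and in non-diabetic mice 1754, 1709, 1885 and 2013. The non-diabetic RBX arrays were above all others, and each diabetic RBX value was below each diabetic one. The interaction was -1.36 (SE 0.15, adjusted p = 0.000152). Of its other probe sets, one agreed in sign (-0.78) and one had 0.07.

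Camkk2, a calcium-dependent kinase that acts on AMP-activated protein kinase, had 4305, 4324, 4608 and 5401 in diabetic RBX and 4083, 5209.6, 4462 and 4515 in diabetic mice. In non-diabetic RBX mice it had 7494, 7439, 7514 and 7136, and in non-diabetic mice 3392, 3469, 3527 and 3615. Both non-diabetic groups were tight and far apart, with the diabetic groups overlapping between them. The interaction was -1.05 (SE 0.13, adjusted p = 0.000212), and with the mean over its probe sets it was -0.33 (adjusted p = 0.146). Itpr2, a calcium release channel of the endoplasmic reticulum, had 1879, 2251, 2079 and 1950.4 in diabetic RBX and 1893, 1607, 1926 and 1859 in diabetic mice. Its values were 2912, 2984, 2864 and 3540.5 in non-diabetic RBX and 942, 947, 1254 and 1345 in non-diabetic mice. The interaction was -1.30 (SE 0.19, adjusted p = 0.000516), and the diabetic groups again overlapped between the others.

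Bicc1, an RNA-binding protein, had 16123, 21923, 17008 and 17879.6 in diabetic RBX and 13984, 17318, 16197 and 10910.3 in diabetic mice. It had 31725, 33052, 27577 and 36633 in non-diabetic RBX and 10269, 9845, 10918 and 10516 in non-diabetic mice, with an interaction of -1.30 (SE 0.18, adjusted p = 0.000399). Tgfbi, a matrix protein induced by transforming growth factor beta, had 37070.3, 43801, 45629 and 44871 in diabetic RBX and 40376, 37153, 39231 and 36636 in diabetic mice. For both genes the non-diabetic RBX values exceeded all others. The values of Tgfbi were 77473, 60419, 62492 and 72180.4 in non-diabetic RBX and 29818, 32389.8, 36242 and 32391 in non-diabetic mice, and its interaction was -0.90 (SE 0.14, adjusted p = 0.000676). Mgll, the lipase that frees fatty acids from monoglycerides, had 11856, 12069, 10695 and 13058 in diabetic RBX and 12974, 12528, 14718 and 10644 in diabetic mice. It had 19618, 22067, 17645 and 22203 in non-diabetic RBX and 11814, 11422, 11063 and 10492 in non-diabetic mice, and its interaction was -0.95 (SE 0.15, adjusted p = 0.000682). With the mean over its probe sets Mgll had -0.39 (adjusted p = 0.131). In none of the 12 genes described so far did the change in diabetic mice pass, and in each the change in non-diabetic mice did. With the cre covariate none of the 12 passed, while each kept its sign, from -1.35 for Vegfc to 2.66 for Sphkap.

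**Figure D3:**
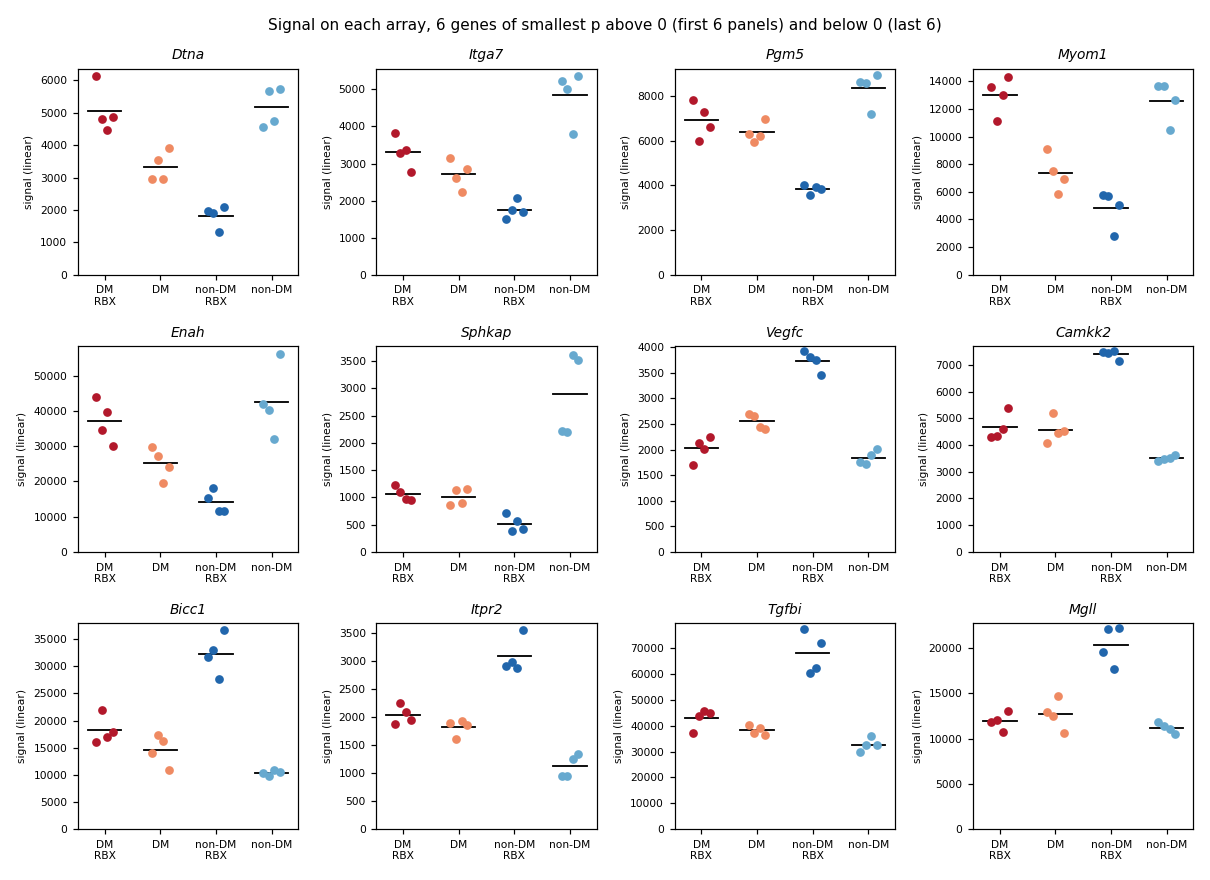
Linear signal of 12 genes on each array by group (DM, diabetic), points being mice and bars group means. In the first 6 panels the non-diabetic RBX mice have the lowest mean and in the last 6 the highest, and the non-diabetic mice stand at or near the opposite end.

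The next genes were among the 15 highest interactions past the threshold. Ldb3, which holds the Z-disc together, averaged 6121 ± 986 in diabetic RBX mice, 5326 ± 850.3 in diabetic mice, 1694 ± 634 in non-diabetic RBX mice and 8875 ± 2044 in non-diabetic mice (SD, n = 4 each). Its interaction was 2.65 (SE 0.32, adjusted p = 0.000178), and its other probe sets had 1.78 and 0.33. The kinase Mylk4, which acts on myosin light chains, had 2.54 (SE 0.31, adjusted p = 0.000164). Akap6, which anchors protein kinase A at the nuclear envelope of muscle cells, had 2.45, adjusted p = 0.0334, and Myoz2, a Z-disc protein that binds calcineurin, had 2.36, adjusted p = 0.0114. Cacnb2, a subunit of the L-type calcium channel that admits calcium for contraction, had 2.67, adjusted p = 0.0455. It missed the threshold in 15 of 28 alternatives, and Akap6 in 12 of 29. Efhd1, a calcium-binding protein of mitochondria, had 2.60, adjusted p = 0.000558. In all 6 genes the non-diabetic RBX mice had the lowest mean.

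Igsf9, a cell adhesion protein of the immunoglobulin superfamily, had the highest interaction of the positive genes, 3.47 (SE 0.85, adjusted p = 0.0142). It varied widely between mice, averaging 858 ± 120.1 in diabetic RBX mice, 525 ± 92.8 in diabetic mice, 179 ± 177 in non-diabetic RBX mice and 773 ± 293 in non-diabetic mice. Its non-diabetic RBX mean on the log2 scale lay below the filter level, a signal of 382, so the size and rank of this interaction rest on low signals, with no detection calls used. The same held for Krtap12-1, Cacnb2, Zdhhc23, Chmp4c and Lratd1. Sost, the secreted Wnt inhibitor sclerostin, averaged 7339.6 ± 1393 in diabetic RBX mice, 5034 ± 1032 in diabetic mice, 2452 ± 1306 in non-diabetic RBX mice and 13076 ± 3588 in non-diabetic mice. Its interaction was 3.06 (SE 0.41, adjusted p = 0.000281), and the non-diabetic mice were highest although 1 of them lay at 7696. Npnt, the matrix protein nephronectin, averaged 22007 ± 4732 in diabetic RBX mice, 16643 ± 3685 in diabetic mice, 7021 ± 3479 in non-diabetic RBX mice and 32656 ± 6168 in non-diabetic mice, with an interaction of 2.76 (SE 0.41, adjusted p = 0.000568). Ptprz1, a receptor tyrosine phosphatase, had 2.76, adjusted p = 0.000516, and Chmp4c, a part of the membrane scission machinery, had 2.30, adjusted p = 0.00556. The remaining 4 of the 15 were Krtap12-1, a keratin-associated protein (2.71, adjusted p = 0.0127), the palmitoyltransferase Zdhhc23 (2.60, adjusted p = 0.0238), Lratd1 (2.28, adjusted p = 0.00445) and Sphkap.

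Kif26a, a kinesin family member, had the lowest interaction of the negative genes past the threshold, -3.46 (SE 0.93, adjusted p = 0.0229). It averaged 1113 ± 685 in diabetic RBX mice, 1102 ± 347 in diabetic mice, 1625 ± 529 in non-diabetic RBX mice and 239.5 ± 165 in non-diabetic mice. Its non-diabetic mean on the log2 scale lay below the filter level, as did those of Ear3, F10, Chil3, Clec4e, Rbfox1, Lrrn4, Fxyd3, Osgin1 and Fcor, and the diabetic RBX means of Apoe, Rbfox1 and Fcor. Of the 30 highest and lowest interactions past the threshold 17 thus rest on a group with low signals. For Kif26a 1 diabetic RBX mouse was at 115, against 1284, 1385 and 1667 in the others of its group. Chil3, a chitinase-like protein of activated macrophages, averaged 945 ± 253 in diabetic RBX mice, 1302 ± 153 in diabetic mice, 1554 ± 998 in non-diabetic RBX mice and 365 ± 27.7 in non-diabetic mice, with an interaction of -2.37 (SE 0.46, adjusted p = 0.00326). Clec4e, a lectin receptor of myeloid cells that senses mycobacterial glycolipid, had -2.35, adjusted p = 0.00662. Ear3, an eosinophil-associated ribonuclease, had -2.54, adjusted p = 0.0113.

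The coagulation factors F10 and F7, proteases of the clotting cascade, had -2.48, adjusted p = 0.00297 and -2.21, adjusted p = 0.00576. F7 averaged 2130.0 ± 543 in diabetic RBX mice, 3361 ± 1436 in diabetic mice, 4194 ± 1629 in non-diabetic RBX mice and 1398 ± 679.8 in non-diabetic mice. Lrrn4, which is strong in mesothelium, had -2.20, adjusted p = 0.0358, and Fxyd3, a regulator of the sodium pump in epithelia, had -2.14, adjusted p = 0.00998. Rbp7, a retinol-binding protein of endothelium and fat, had -2.31, adjusted p = 0.0145. Depp1, a target of the insulin-restrained FOXO factors, had -2.01, adjusted p = 0.0427, and Fcor, a repressor of FOXO1 in fat, had -1.84, adjusted p = 0.0139. Depp1 missed the threshold in 18 of 29 alternatives and Lrrn4 in 13 of 28. Osgin1, induced by oxidative stress, had -1.98, adjusted p = 0.0149, and the neuronal splicing factor Rbfox1 had -2.27, adjusted p = 0.0248. Igfbp3 and Apoe, described further on, complete the 15. The non-diabetic mice had the lowest mean in 13 of the 15, and the diabetic RBX mice in Fcor and Apoe.

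Apoe, the gene disrupted in all mice of the series, was measured by a probe set with low signal. It was 453, 232, 36.9 and 407 in diabetic RBX mice and 557, 857, 1015 and 974 in diabetic mice. In non-diabetic RBX mice it was 790, 753, 635 and 741, and in non-diabetic mice 493, 410.4, 843 and 436. The diabetic RBX values were below those of the diabetic and the non-diabetic RBX mice, with 1 mouse at 36.9, and overlapped the non-diabetic ones. The interaction was -2.54 (SE 0.78, adjusted p = 0.0418). Without diabetic RBX mouse 3 the interaction was -1.72 (adjusted p = 0.02), and the call was lost in 14 of the 28 alternatives that tested it. Since every mouse carries the disruption and the series has no wild type, this probe set does not check the genotype. Prkcb, the gene of the RBX target, averaged 2404 ± 423 in diabetic RBX mice, 2321 ± 282 in diabetic mice, 2610.1 ± 269 in non-diabetic RBX mice and 2007 ± 605 in non-diabetic mice. Its interaction of -0.39, adjusted p = 0.382 did not pass, and its other probe set had -0.30.

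In 64 positive genes (0.58%) and 49 negative ones (0.444%) the changes with RBX had opposite signs with an unadjusted p under 0.05 in both states. Hspb1, a small heat shock protein that binds actin in muscle, is one of them. It was 54514, 41316, 53281 and 49833 in diabetic RBX mice and 23200.5, 28638, 30636 and 32532 in diabetic mice. It was 24664, 23600.2, 13632 and 12043 in non-diabetic RBX mice and 46875, 46717, 37389 and 54052 in non-diabetic mice. Each diabetic RBX value exceeded each diabetic one, and each non-diabetic RBX value was below each non-diabetic one. The interaction was 2.18 (SE 0.27, adjusted p = 0.000205), with 0.79 in diabetic and -1.38 in non-diabetic mice, of which only the change in non-diabetic mice passed on its own. Ptprz1, Myoz2, Myom1 and Enah were the others with the highest interactions of this kind.

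On the negative side, Plin2, which coats lipid droplets, averaged 22549.9 ± 2300.3 in diabetic RBX mice, 34989.5 ± 11400.2 in diabetic mice, 46320.2 ± 17403 in non-diabetic RBX mice and 20567 ± 7587 in non-diabetic mice, with -0.58 in diabetic and 1.16 in non-diabetic mice and an interaction of -1.74 (SE 0.37, adjusted p = 0.00651). Cd36, the scavenger receptor through which macrophages and fat take up fatty acids and oxidised lipoprotein, averaged 13516 ± 1808 in diabetic RBX mice, 19880.4 ± 5542 in diabetic mice, 20991 ± 4204 in non-diabetic RBX mice and 10354 ± 3981 in non-diabetic mice. Its interaction was -1.59 (SE 0.31, adjusted p = 0.00362). Igfbp3, a carrier of the insulin-like growth factors, averaged 1068 ± 329 in diabetic RBX mice, 2246 ± 916 in diabetic mice, 1105 ± 497 in non-diabetic RBX mice and 575 ± 111 in non-diabetic mice, with -1.85 (SE 0.49, adjusted p = 0.0216). For Igfbp3 alone of these genes the change in diabetic mice, -1.02, was larger than that in non-diabetic mice, 0.83, and neither passed on its own. Its other probe set had -0.45, and its highest adjusted p among alternatives without a covariate was 0.295 in limma. Noct, a rhythmic phosphatase tied to metabolism, had -1.57, adjusted p = 0.00429, and Bcl6b, a repressor found in endothelium, had -1.62, adjusted p = 0.00769.

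Contractile smooth muscle genes had the highest share past the threshold of the 38 lists with at least 4 measured genes. Of 22 measured members, 18 passed, all with a positive value (81.8%, against 6.02% of all genes), and the median interaction was 1.26 against -0.06 for all genes. The median change with RBX was 0.18 in diabetic and -1.08 in non-diabetic mice. Myocd, the coactivator that switches on the contractile programme, averaged 12412 ± 2393 in diabetic RBX mice, 9166 ± 1174 in diabetic mice, 4595 ± 694 in non-diabetic RBX mice and 9569 ± 1726 in non-diabetic mice. Its interaction was 1.48 (SE 0.22, adjusted p = 0.000568). The other probe set of Myocd had 0.0058, and the mean over both had 0.74 (adjusted p = 0.147 in limma). Cnn1, the actin-binding calponin, averaged 30479 ± 2743 in diabetic RBX mice, 24617 ± 1673 in diabetic mice, 14608 ± 5470.3 in non-diabetic RBX mice and 37961 ± 6449 in non-diabetic mice, with 1.74 (SE 0.27, adjusted p = 0.000724). Synpo2, a partner of actin in muscle, had 1.90 (SE 0.30, adjusted p = 0.000705), Ppp1r14a, an inhibitor of myosin phosphatase that protein kinase C activates, had 1.61, adjusted p = 0.000617, and the tropomyosin gene Tpm1 had 1.26, adjusted p = 0.001.

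The 4 contractile members that did not pass are named because they are few. Acta2, smooth muscle actin, had -0.01, adjusted p = 0.981 and averaged 215298 ± 7059.5 in diabetic RBX mice, 175883 ± 13601 in diabetic mice, 205054 ± 29859 in non-diabetic RBX mice and 165904 ± 19519 in non-diabetic mice. Tagln, the actin-binding transgelin, had 0.43, adjusted p = 0.104, Tpm2 had -0.12, adjusted p = 0.564 and Des had 1.04, adjusted p = 0.143. The summed signal of the list was 973607 to 1124730 in diabetic RBX mice, 821305 to 986675 in diabetic mice, 618554 to 915681 in non-diabetic RBX mice and 1014120 to 1111690 in non-diabetic mice. The sums of the non-diabetic RBX mice were below those of the non-diabetic mice without overlap. The diabetic sums overlapped the non-diabetic RBX ones, and the diabetic RBX sums overlapped the non-diabetic ones. With the cre covariate the list's median was 0.48 and with the Actb ratio 1.02.

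Contractile genes are known to be driven by serum response factor with myocardin through a CArG box (CC, then 6 bases of A or T, then GG), and the 250 bases upstream of the RefSeq starts (mouse build GRCm38.p6) were searched for it on both strands. Of the 17 contractile genes with a promoter in the RefSeq table, 2 held the consensus CArG box (11.8%), against 130 of 8949 tested genes (1.45%) and 482 of 32851 promoters in the table (1.47%). Both are shown, because they carry the element beside a positive interaction, with the CArG box in capitals. Myl9, a regulatory light chain of myosin (1.30, adjusted p = 0.00128), has it at chr2:156775214-156775463, plus strand, and Filip1l, a filamin-associated protein (1.04, adjusted p = 0.00225), at chr16:57548992-57549241, plus strand. They were chosen for the match after their values were known.
Myl9: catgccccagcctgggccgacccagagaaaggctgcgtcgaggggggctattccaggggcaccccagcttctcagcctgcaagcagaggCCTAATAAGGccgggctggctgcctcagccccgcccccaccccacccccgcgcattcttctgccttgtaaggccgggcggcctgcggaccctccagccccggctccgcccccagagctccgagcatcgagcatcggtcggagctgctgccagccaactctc
Filip1l: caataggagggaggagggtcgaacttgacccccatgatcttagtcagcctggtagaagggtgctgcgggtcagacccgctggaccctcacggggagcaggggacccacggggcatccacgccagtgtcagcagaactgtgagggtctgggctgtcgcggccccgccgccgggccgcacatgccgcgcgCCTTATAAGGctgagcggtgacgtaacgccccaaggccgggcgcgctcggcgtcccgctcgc
A match is a description of these letters, and its absence in the other 15 genes says nothing of the factor.

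Of 23 collagen and elastic fibre genes 4 passed, all positive (17.4%, against 6.02% of all genes), with a median of 0.25. The median was 0.07 with the cre covariate, 0.08 with the Actb ratio and 0.12 without non-diabetic RBX mouse 4. Postn, the matrix protein periostin, averaged 101334 ± 17579.9 in diabetic RBX mice, 94527 ± 12600.4 in diabetic mice, 50764 ± 9015 in non-diabetic RBX mice and 101358 ± 7408 in non-diabetic mice, with an interaction of 1.10 (SE 0.20, adjusted p = 0.00219). Col18a1, a basement membrane collagen, had 1.06, adjusted p = 0.00362, the cross-linking enzyme Lox 1.09, adjusted p = 0.00541 and Col4a2 0.65, adjusted p = 0.0345, while Col6a3 (0.75, adjusted p = 0.123) did not pass. Col4a2 missed the threshold in 12 of 29 alternatives. In the TGF beta pathway 2 of 21 passed with a positive value and 3 with a negative one (23.8% either way, against 11.5% of all genes). Ltbp1, which stores latent TGF beta in the matrix, had 1.57 (SE 0.25, adjusted p = 0.000797), and the receptor Tgfbr1 had 0.55, adjusted p = 0.0103. For Tgfbr1 the highest adjusted p among alternatives without a covariate was 0.227 in limma. The endothelial receptor Acvrl1 had -0.87, adjusted p = 0.00325 and its coreceptor Eng -1.16, adjusted p = 0.00339.

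Nox4, the hydrogen peroxide-forming NADPH oxidase of smooth muscle, stood out among 22 NADPH oxidase and antioxidant genes. It averaged 15499 ± 1906 in diabetic RBX mice, 15017 ± 3028 in diabetic mice, 7397 ± 2780.2 in non-diabetic RBX mice and 23854 ± 2437 in non-diabetic mice. Its interaction was 1.82 (SE 0.28, adjusted p = 0.000702), the only positive call of the list, beside 3 negative ones (18.2% either way, against 11.5% of all genes). Those were Gpx3, a secreted glutathione peroxidase (-1.37, adjusted p = 0.00677), Ncf4, a subunit of the phagocyte oxidase (-1.06, adjusted p = 0.00983), and Keap1, the inhibitor of NRF2 (-0.60, adjusted p = 0.0185). Cybb, the catalytic subunit of the phagocyte oxidase, had -0.75, adjusted p = 0.0845 and did not pass.

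**Figure D4:**
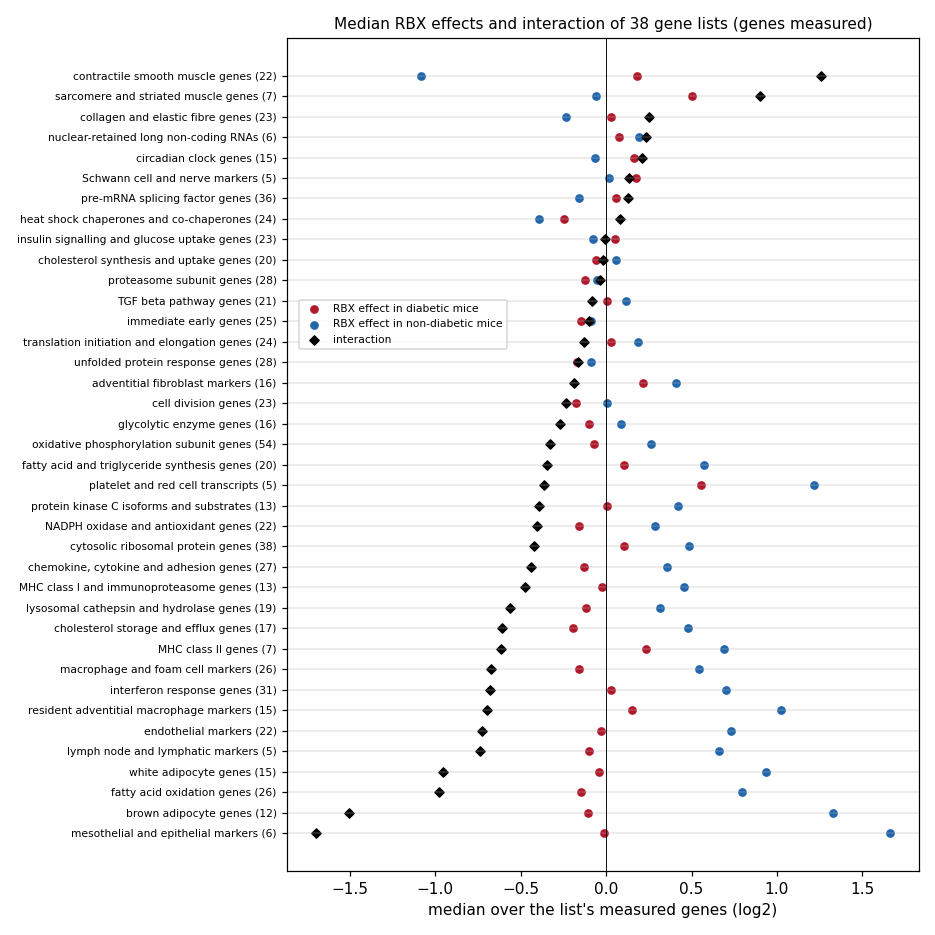
Median change with RBX in diabetic mice (red), in non-diabetic mice (blue) and median interaction (black) of 38 gene lists, on the log2 scale, with the number of measured genes in brackets. For most lists the red points lie near 0 and the black points mirror the blue ones; contractile smooth muscle genes are at the top and mesothelial and epithelial markers at the bottom.

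Interferon response genes had negative interactions in 30 of 31 measured members, and 11 passed (35.5%, against 5.5% of all genes with a negative call). Their median was -0.68, from 0.03 in diabetic and 0.70 in non-diabetic mice. Iigp1, an interferon-inducible GTPase of cellular defence, averaged 10647 ± 1467 in diabetic RBX mice, 10221 ± 339 in diabetic mice, 10028 ± 1336 in non-diabetic RBX mice and 4960.4 ± 440.0 in non-diabetic mice. The interaction of Iigp1 was -0.96 (SE 0.16, adjusted p = 0.000935), and the non-diabetic mice alone were low. Ifih1, a sensor of viral RNA, averaged 3450.3 ± 444 in diabetic RBX mice, 3373 ± 349.6 in diabetic mice, 3999 ± 131 in non-diabetic RBX mice and 2323 ± 116 in non-diabetic mice, with -0.75 (SE 0.15, adjusted p = 0.00365). Parp14, an ADP-ribosyltransferase of immune cells, had -0.90, adjusted p = 0.00359, Oasl2, a relative of the antiviral oligoadenylate synthetases, -1.07, adjusted p = 0.0106, and Ifi35 -0.44, adjusted p = 0.0101. The other probe sets of Ifi35 had -0.10 and -0.11, and its highest adjusted p among alternatives without a covariate was 0.238 in limma. The list's median log2 signal averaged 11.38 ± 0.05 in diabetic RBX mice, 11.44 ± 0.23 in diabetic mice, 11.50 ± 0.03 in non-diabetic RBX mice and 10.84 ± 0.10 in non-diabetic mice (SD, n = 4 each), and the 4 non-diabetic arrays lay below the other 12. The median interaction was -0.68 with the cre covariate, though no member passed then.

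Interferon-induced genes often carry a known response element in their promoters, which was searched as GAAA, any 2 bases and GAAA again. In the 250 bases upstream of the RefSeq start, on both strands, 13 of 22 interferon response genes held it (59.1%), against 276 of 8949 tested genes (3.08%) and 978 of 32851 promoters (2.98%). Of the contractile genes 1 of 17 did (5.88%). Shown here, with the motif in capitals, are 3 members that passed and hold it near the start, again picked with their values known. They are Gbp2, a guanylate-binding protein of defence against pathogens in vacuoles (-0.79, adjusted p = 0.0113, chr3:142620413-142620662, plus strand), Oas1a, an oligoadenylate synthetase (-0.79, adjusted p = 0.0131, chr5:120907526-120907775, minus strand), and Igtp, an interferon-inducible GTPase (-0.75, adjusted p = 0.0335, chr11:58199306-58199555, plus strand).
Gbp2: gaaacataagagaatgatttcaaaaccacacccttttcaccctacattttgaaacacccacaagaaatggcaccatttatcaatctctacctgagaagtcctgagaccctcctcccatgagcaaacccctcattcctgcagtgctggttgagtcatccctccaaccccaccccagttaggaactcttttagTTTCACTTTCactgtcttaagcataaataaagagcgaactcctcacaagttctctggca
Oas1a: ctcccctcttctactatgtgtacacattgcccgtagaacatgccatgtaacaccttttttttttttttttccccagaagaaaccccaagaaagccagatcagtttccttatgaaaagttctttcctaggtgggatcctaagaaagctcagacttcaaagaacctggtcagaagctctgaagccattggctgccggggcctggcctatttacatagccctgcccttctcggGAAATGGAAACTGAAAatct
Igtp: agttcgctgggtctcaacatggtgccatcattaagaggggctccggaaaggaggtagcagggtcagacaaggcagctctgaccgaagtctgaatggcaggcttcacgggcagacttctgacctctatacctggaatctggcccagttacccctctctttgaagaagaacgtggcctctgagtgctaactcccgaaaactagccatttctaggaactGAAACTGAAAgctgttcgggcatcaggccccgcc
In Gbp2 the motif reads on the opposite strand, and in Oas1a 2 copies overlap. The element has long been known in such genes, so these counts describe the list and not the treatment.

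Genes of antigen presentation that passed were negative too. Of 13 MHC class I and immunoproteasome genes 5 passed, all negative (38.5%, against 5.5% of all genes), with a median of -0.48. Psmb8, an immunoproteasome subunit, averaged 3368 ± 252 in diabetic RBX mice, 3868 ± 763 in diabetic mice, 4996 ± 471 in non-diabetic RBX mice and 2544 ± 243 in non-diabetic mice, with -1.15 (SE 0.18, adjusted p = 0.000739). Its other probe set had 0.23, and the mean over both had -0.46 (adjusted p = 0.272 in limma). Psmb10 had -0.72, adjusted p = 0.00333, Psmb9 -0.86, adjusted p = 0.0416, the class I light chain B2m -0.49, adjusted p = 0.032 and the peptide-loading protein Tapbp -0.48, adjusted p = 0.0455. Tapbp missed the threshold in 20 of 29 alternatives, and Psmb9 and B2m in 14 each. Of 7 MHC class II genes 2 passed, both negative (28.6%, against 5.5% of all genes). H2-Ab1 averaged 10738 ± 1343 in diabetic RBX mice, 9163 ± 1313 in diabetic mice, 17841 ± 1594 in non-diabetic RBX mice and 8189 ± 1107 in non-diabetic mice, with -0.90 (SE 0.18, adjusted p = 0.00362), and H2-Aa had -0.66, adjusted p = 0.00533. The invariant chain Cd74 (-0.45, adjusted p = 0.0543), the protease Ctss (-0.72, adjusted p = 0.0693) and H2-Eb1 (-0.44, adjusted p = 0.0716) did not pass.

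Macrophage and foam cell markers were below 0 in 26 of 26 measured genes, and 8 passed (30.8%, against 5.5% of all genes with a negative call), with a median of -0.67. Csf1r, the receptor for the macrophage growth factor, averaged 30833 ± 2311 in diabetic RBX mice, 28971 ± 3117 in diabetic mice, 36502 ± 2199 in non-diabetic RBX mice and 22157 ± 3078 in non-diabetic mice, with -0.64 (SE 0.15, adjusted p = 0.0106). Cd68, a lysosomal glycoprotein of macrophages, had -1.04, adjusted p = 0.0318, the pan-leukocyte phosphatase Ptprc -0.74, adjusted p = 0.00884 and the Fc receptor chain Fcer1g -0.96, adjusted p = 0.023. Cd68 missed the threshold in 12 of 29 alternatives. The summed signal of the markers was 733121 to 776312 in diabetic RBX mice, 616971 to 935737 in diabetic mice, 678588 to 1152880 in non-diabetic RBX mice and 524699 to 796190 in non-diabetic mice. The groups overlapped in these sums, and the spread among diabetic and non-diabetic RBX mice was wide. The median was -0.09 with the cre covariate and -0.64 with the Actb ratio.

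Markers of resident adventitial macrophages were mixed. Of 15 measured, 4 passed with a negative and 1 with a positive value (33.3% either way, against 11.5% of all genes), and the median was -0.70. Pf4, a chemokine of platelets and resident macrophages, averaged 8834 ± 1011 in diabetic RBX mice, 7923 ± 908 in diabetic mice, 16284 ± 2573 in non-diabetic RBX mice and 6441 ± 926 in non-diabetic mice, with -1.18 (SE 0.18, adjusted p = 0.000682). The mannose receptor Mrc1 had -0.70, adjusted p = 0.0393 and the lectin Fcna -1.15, adjusted p = 0.0411. Mrc1 and Fcna each missed the threshold in 14 of 29 alternatives. The positive one was Cbr2, a carbonyl reductase (1.16, adjusted p = 0.00884). Among chemokine, cytokine and adhesion genes 6 of 27 passed, all negative (22.2%, against 5.5% of all genes). Ccl9, a chemokine for myeloid cells, had -1.43 (SE 0.28, adjusted p = 0.0032), Ccl6 -1.15, adjusted p = 0.0227 and the interleukin 1 receptor antagonist Il1rn -1.81, adjusted p = 0.018. The adhesion molecules Icam1 (-1.02, adjusted p = 0.00803) and Sele (-1.54, adjusted p = 0.017), by which endothelium holds leukocytes, also passed. Icam1 averaged 8196 ± 1151 in diabetic RBX mice, 8014 ± 1446 in diabetic mice, 11128 ± 2107 in non-diabetic RBX mice and 5354 ± 1125 in non-diabetic mice.

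Endothelial markers had 12 of 22 members past the threshold, all negative (54.5%, against 5.5% of all genes), and a median of -0.73, from -0.03 in diabetic and 0.73 in non-diabetic mice. Eng averaged 6961 ± 1241 in diabetic RBX mice, 7329 ± 1273 in diabetic mice, 9648 ± 992 in non-diabetic RBX mice and 4618 ± 953 in non-diabetic mice. Egfl7, a secreted guide of vessel sprouting, averaged 5189 ± 438 in diabetic RBX mice, 5039 ± 1617 in diabetic mice, 7089 ± 875 in non-diabetic RBX mice and 3114 ± 171 in non-diabetic mice, with -1.08 (SE 0.24, adjusted p = 0.00707). Nos3, the endothelial nitric oxide synthase, had -0.95, adjusted p = 0.0161, and Ecscr, an adhesion regulator, -1.02, adjusted p = 0.00877. The summed signal of the markers was 124824 to 142010 in diabetic RBX mice, 103291 to 156457 in diabetic mice, 132899 to 191424 in non-diabetic RBX mice and 88672 to 105622 in non-diabetic mice. The non-diabetic RBX sums were all above the non-diabetic ones, and the diabetic groups overlapped each other. Their median was -0.69 with the cre covariate.

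Adventitial fibroblast markers had 3 of 16 passing, all negative (18.8%, against 5.5% of all genes), with a median of -0.19. The median was -0.72 with the cre covariate and turned to 0.03 without non-diabetic RBX mouse 1. Pi16, a marker of fibroblast progenitors, averaged 28256 ± 1235 in diabetic RBX mice, 22137 ± 3939 in diabetic mice, 42904 ± 6528 in non-diabetic RBX mice and 17916 ± 1070.0 in non-diabetic mice, with -0.88 (SE 0.17, adjusted p = 0.00319). Its other probe set had -0.56, and its highest adjusted p among alternatives without a covariate was 0.333 in limma. Igfbp6 had -0.88, adjusted p = 0.0328, and Gsn, the actin-severing gelsolin, -0.65, adjusted p = 0.0169. Igfbp6 missed the threshold in 11 of 29 alternatives. Another probe set of Gsn had the opposite sign at an unadjusted p under 0.05 (3.69). Of 15 white adipocyte genes 4 passed with a negative value and 1 with a positive one (33.3% either way, against 11.5% of all genes), with a median of -0.96. Cd36, also counted among the macrophage and foam cell markers, was among the negative ones. The lipid carrier Fabp4 had -1.27, adjusted p = 0.0342, the lipoprotein lipase gene Lpl -0.94, adjusted p = 0.0298 and the triglyceride lipase Pnpla2 -1.05, adjusted p = 0.0206, while Plin4, a lipid droplet protein, had 1.06, adjusted p = 0.0039. Fabp4 missed the threshold in 16 and Lpl in 11 of 29 alternatives.

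Brown adipocyte genes had a median of -1.51, yet only Ebf2, a transcription factor of that lineage (-1.46, adjusted p = 0.0168), and Prdm16, which had the opposite sign (0.74, adjusted p = 0.0146), passed of 12 (16.7% either way, against 11.5% of all genes). Their summed signal was 34910.5 to 76601 in diabetic RBX mice, 22490.4 to 88053 in diabetic mice, 42007 to 156492 in non-diabetic RBX mice and 36909.9 to 51194 in non-diabetic mice, which overlapped in all groups. With the Actb ratio as a covariate the medians of the white and brown lists were 0.16 and 0.18. Of the mesothelial and epithelial markers 6 were measured and 2 passed, both negative (33.3%, against 5.5% of all genes), and the median was -1.70. They were Lrrn4 and the adhesion protein Epcam (-1.20, adjusted p = 0.0409). Lrrn4 missed the threshold in 13 and Epcam in 15 of 28 alternatives. The sum over that list was 4503 to 8629 in diabetic RBX mice, 4396 to 10023 in diabetic mice, 6693 to 13895 in non-diabetic RBX mice and 2819.5 to 4384 in non-diabetic mice, without overlap between the non-diabetic groups. The part of these fat and mesothelial signals in the other results was not tested.

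**Figure D5:**
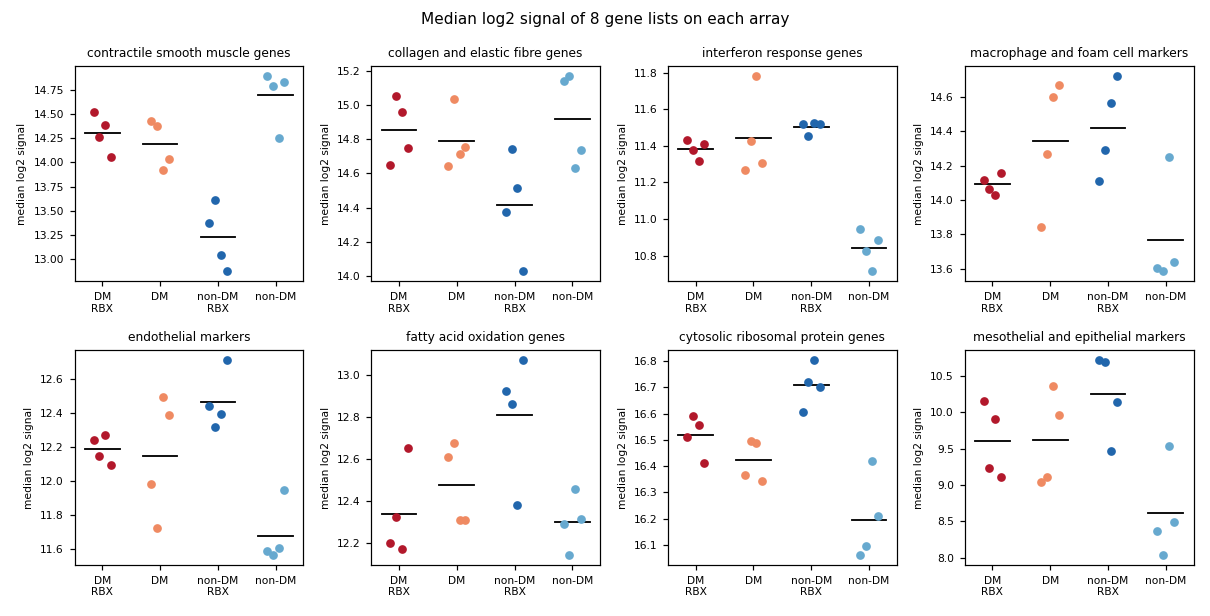
Median log2 signal of 8 gene lists on each array by group (DM, diabetic), points being mice and bars group means. The non-diabetic RBX mice have the lowest mean for contractile smooth muscle and for collagen and elastic fibre genes and the highest for the other 6 lists; for interferon response genes the 4 non-diabetic arrays lie below the other 12.

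All 26 measured fatty acid oxidation genes were below 0 and 9 passed (34.6%, against 5.5% of all genes with a negative call). Their median was -0.98, from -0.15 in diabetic and 0.80 in non-diabetic mice. Acadl, the long-chain acyl-CoA dehydrogenase, averaged 12124 ± 2011 in diabetic RBX mice, 15015 ± 3630.3 in diabetic mice, 23097 ± 8633 in non-diabetic RBX mice and 10804 ± 563 in non-diabetic mice, with -1.30 (SE 0.31, adjusted p = 0.0128). Etfb, which takes electrons from these dehydrogenases, had -1.27, adjusted p = 0.00641, and Acads, the short-chain enzyme, -0.92, adjusted p = 0.014. Acot2, a mitochondrial thioesterase, had -0.95, adjusted p = 0.0097, and Angptl4, an inhibitor of lipoprotein lipase induced by fatty acids, -1.15, adjusted p = 0.0105. With the cre covariate the median was -0.55, and with the Actb ratio -0.27.

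Of 17 cholesterol storage and efflux genes 4 passed, all negative (23.5%, against 5.5% of all genes): Plin2, Apoe, the oxysterol receptor LXR alpha, coded by Nr1h3 (-1.06, adjusted p = 0.00899), and the cholesteryl ester hydrolase Nceh1 (-0.95, adjusted p = 0.0476). Nceh1 missed the threshold in 20 of 29 alternatives. Apoc2, the activator of lipoprotein lipase, had -1.65, adjusted p = 0.0542 and did not pass. None of 20 cholesterol synthesis and uptake genes passed in limma, 6 being at an unadjusted p under 0.05. Of these Pmvk (-0.69, adjusted p = 0.0675) and Dhcr7 (-0.97, adjusted p = 0.0849) were below 0 and Idi1 (0.84, adjusted p = 0.1) and Msmo1 (0.60, adjusted p = 0.1) above it. Of 20 genes listed under fatty acid and triglyceride synthesis, only Mgll passed, with a negative value. That share was 5%, against 5.5% of all genes with a negative call and 11.5% with a call either way. Mgll codes for a lipase and not for an enzyme of synthesis. Its other probe sets had -0.13 and -0.10. Dgat2, the last enzyme of triglyceride synthesis, had -1.22, adjusted p = 0.115.

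Lysosomal cathepsin and hydrolase genes had 4 of 19 passing, all negative (21.1%, against 5.5% of all genes). The median was -0.56, with the cre covariate 0.0038 and with the Actb ratio -0.49. Ctsk, a collagen-degrading cathepsin, averaged 10980.2 ± 1549 in diabetic RBX mice, 20164 ± 6603 in diabetic mice, 12464 ± 3665 in non-diabetic RBX mice and 9984 ± 3244 in non-diabetic mice, with -1.15 (SE 0.33, adjusted p = 0.0327), and here the diabetic mice had the highest mean. Hexa had -0.55, adjusted p = 0.0239, Psap, a precursor of sphingolipid activators, -0.90, adjusted p = 0.0264 and Ctsb -0.71, adjusted p = 0.0409. Ctsb missed the threshold in 18, Ctsk in 12 and Psap in 11 of 29 alternatives.

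Mitochondrial and translation genes followed with smaller values. Of 54 oxidative phosphorylation subunit genes 9 passed, all negative (16.7%, against 5.5% of all genes), and the median was -0.33. Atp5d, a subunit of ATP synthase, had -0.62 (SE 0.13, adjusted p = 0.00526), Ndufa10 of complex I -0.75, adjusted p = 0.00887 and Sdhb of complex II -0.79, adjusted p = 0.0125. Cox8a of complex IV had -0.49, adjusted p = 0.00996, with -0.25 in diabetic and 0.23 in non-diabetic mice. With the Actb ratio the list's median was 0.03.

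All 38 measured cytosolic ribosomal protein genes were below 0, and 15 passed (39.5%, against 5.5% of all genes with a negative call). Their median interaction was -0.43. The list's median log2 signal averaged 16.52 ± 0.08 in diabetic RBX mice, 16.42 ± 0.08 in diabetic mice, 16.71 ± 0.08 in non-diabetic RBX mice and 16.20 ± 0.16 in non-diabetic mice. Rpsa averaged 113689 ± 7210.4 in diabetic RBX mice, 97060.2 ± 9510.0 in diabetic mice, 160211 ± 17409.6 in non-diabetic RBX mice and 76446 ± 9787 in non-diabetic mice, with -0.84 (SE 0.15, adjusted p = 0.00205), and Rps15 had -0.79, adjusted p = 0.00136. Of 24 translation initiation and elongation genes 6 passed, all negative (25%, against 5.5% of all genes), among them Eef1a1 (-0.64, adjusted p = 0.00901) and Eef1d (-0.60, adjusted p = 0.00445). Their muscle and nerve counterpart Eef1a2 had -1.25, adjusted p = 0.0223, from -0.70 in diabetic and 0.55 in non-diabetic mice. The median of the ribosomal list was -0.08 with the cre covariate.

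Stress chaperones did not share one sign. Of 24 heat shock genes 4 passed with a positive and 2 with a negative value (25% either way, against 11.5% of all genes), and the median was 0.08. Besides Hspb1 the positive ones were Hsp90aa1, the inducible HSP90 (0.89, adjusted p = 0.00431), the small heat shock protein Cryab (0.76, adjusted p = 0.00651) and the co-chaperone Dnajb4 (0.96, adjusted p = 0.0198). For Dnajb4 both RBX changes were below 0, -0.60 in diabetic and -1.56 in non-diabetic mice. The mitochondrial chaperone Hspa9 (-0.53, adjusted p = 0.0239) and the co-chaperone Dnajb1 (-0.58, adjusted p = 0.0325) were negative.

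The 5 genes that passed for RBX within diabetic mice, named because they are few, had mostly no interaction call. Hspa1b, an inducible HSP70, averaged 9802 ± 948 in diabetic RBX mice, 30334 ± 8152 in diabetic mice, 6724 ± 931 in non-diabetic RBX mice and 15885 ± 3712 in non-diabetic mice. Its change was -1.60 in diabetic and -1.23 in non-diabetic mice, with an interaction of -0.37, adjusted p = 0.341. Hspa1a had -1.29 and -1.21 in the same order, with -0.08, adjusted p = 0.869. The transcripts of Hspa1a and Hspa1b are nearly identical, and their probe sets may share signal. Dnaja1 had -0.85 and -0.38, with -0.47, adjusted p = 0.13, and the splicing cofactor Son had 0.48 and 0.60, with -0.12, adjusted p = 0.56. Of the 5 only Dnajb1, with -0.74 and -0.16, passed for the interaction.

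Among 13 protein kinase C isoforms and substrates, Prkch, an isoform of endothelium and T cells (-0.92, adjusted p = 0.00998), and the substrate Marcks (-0.98, adjusted p = 0.0388) passed. Their share was 15.4%, against 5.5% of all genes with a negative call and 11.5% with a call either way. Marcksl1 (-1.03, adjusted p = 0.0556) did not pass. Marcks missed the threshold in 15 of 29 alternatives. Of 23 insulin signalling genes 3 passed with a positive value, Igf1r (0.71, adjusted p = 0.018), Grb14 (1.08, adjusted p = 0.0441) and Pik3ca (0.52, adjusted p = 0.048), and 2 with a negative one, Igfbp5 (-0.81, adjusted p = 0.0131) and Igfbp3 (21.7% either way). Pik3ca missed the threshold in 19 and Grb14 in 17 of 29 alternatives. The other probe set of Igfbp5 had 0.21, and its highest adjusted p among alternatives without a covariate was 0.518 in limma. Igf1r, the receptor of insulin-like growth factor 1, averaged 16208 ± 1923 in diabetic RBX mice, 11685 ± 1694 in diabetic mice, 9614 ± 1034 in non-diabetic RBX mice and 11373 ± 1911 in non-diabetic mice. Of 16 glycolytic genes Pfkp (0.54, adjusted p = 0.0212) was positive, and Ldha (-0.54, adjusted p = 0.0148) and Pfkl (-0.65, adjusted p = 0.0267) were negative (18.8% either way). Of 36 splicing factor genes 4 passed, all positive: Rbm39 (0.64, adjusted p = 0.00475), Hnrnph1 (0.52, adjusted p = 0.0148), Rbm25 (1.04, adjusted p = 0.0308) and Srsf5 (0.68, adjusted p = 0.0311). That share was 11.1%, against 6.02% of all genes with a positive call and 11.5% with a call either way. Rbm25 missed the threshold in 11, Srsf5 in 9 and Hnrnph1 in 3 of 29 alternatives.

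Of 23 cell division genes 2 passed, the replication helicase subunit Mcm4 (-0.78, adjusted p = 0.0153) and the centromere histone Cenpa (-0.88, adjusted p = 0.0486), both negative. Their share was 8.7%, against 5.5% of all genes with a negative call and 11.5% with a call either way. Cenpa missed the threshold in 19 of 28 alternatives. The shear-responsive factor Klf2 (-0.93, adjusted p = 0.018) was the only immediate early gene to pass of 25 (4%), and Ddit3 (-0.84, adjusted p = 0.0103) the only unfolded protein response gene of 28 (3.57%). Psmc6 (0.42, adjusted p = 0.0464) was the only proteasome subunit gene of 28 (3.57%), and it missed the threshold in 21 of 29 alternatives. None of 15 circadian clock genes passed in limma, against 6 at an unadjusted p under 0.05, the smallest p being that of Clock (0.70, adjusted p = 0.0525). Ryr2, a calcium release channel, was the only one of 7 measured striated muscle genes to pass (2.18, adjusted p = 0.0148), a share of 14.3%. Another 23 genes of that list, among them the cardiac myosins Myh6 and Myh7, did not exceed the filter. No platelet and red cell, Schwann cell or lymphatic marker passed in limma, of 5 measured in each list, and 1, 1 and 2 of them had an unadjusted p under 0.05. Nor did Ighm or Cd8a, the 2 T and B lymphocyte markers measured, or any of 2 mast cell markers or 6 nuclear-retained non-coding RNAs, of which 1, 1 and 0 had an unadjusted p under 0.05.

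The 50 genes whose change was larger in diabetic than in non-diabetic mice included Apoe, Igfbp3, Ctsk, Klf2, Mcm4, Igf1r and Rbm39. Others, picked here after their values were seen, were Smarcd3, a subunit of a chromatin remodeller (0.93, adjusted p = 0.00227), Rspo2, an amplifier of Wnt signals (-1.60, adjusted p = 0.0272), and Bmp2, a bone morphogenetic protein (-1.04, adjusted p = 0.0258). Smarcd3 averaged 9917 ± 1069 in diabetic RBX mice, 6443 ± 642 in diabetic mice, 8229 ± 1444 in non-diabetic RBX mice and 10126 ± 926 in non-diabetic mice, the diabetic mice having the lowest mean. Rspo2 averaged 271 ± 55.4 in diabetic RBX mice, 776 ± 114 in diabetic mice, 535 ± 184 in non-diabetic RBX mice and 511 ± 172 in non-diabetic mice, with -1.53 in diabetic and 0.07 in non-diabetic mice. Within diabetic mice only Dnajb1 of these 50 genes passed on its own.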

How the data were processed

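Whole aorta from 16 mice was measured on Affymetrix arrays, 1 mouse per array. Trizol RNA, 2 ug per array, was turned into biotin-labelled cRNA, per the labels. The authors deposited linear intensity values made with MAS5, per the submitters' processing notes, which give no version. Their trimmed mean was 1500.01 on every array, so the deposited intensities had been scaled to a common trimmed mean. The median log2 signal of an array still differed by group. It averaged 8.81 ± 0.04 in diabetic RBX, 8.70 ± 0.01 in diabetic, 8.92 ± 0.12 in non-diabetic RBX and 8.63 ± 0.06 in non-diabetic mice. No scanner files, detection calls or scan batches were used here. The precision is limited by the 4 arrays per group.

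The log2 of the deposited values was taken with no further normalization. Of 45101 probe sets, 64 were controls, 34958 named 1 gene symbol, 932 several and 9211 none. Each gene was read from its probe set with the highest mean log2 signal, and kept where that mean exceeded the median over probe sets (381.5 as a linear signal). Files were read with data.table (version 1.17.8). A linear model of limma (version 3.58.1, under R 4.3.3) was fitted to all 11042 genes with 4 group means and 12 residual degrees of freedom. The empirical Bayes step used an intensity trend, and p-values were adjusted by Benjamini-Hochberg. Every adjusted p in the text is limma's. The procedure was tested on simulated data.

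The genes named were Prkcb and Apoe, the 15 highest and 15 lowest interactions past the threshold, up to 5 members with the smallest p in each list described, and up to 5 genes in each direction with opposite RBX effects. Array values were printed for the 6 smallest p in each direction, and exceptions are stated. Members and lists were chosen with earlier results of these data known. The alternatives were other scaling, filters, offsets, probe set rules, variance models, array weights, a replicate block, 2 array covariates and leaving out each array, with 1 added after seeing the data that left out 2 arrays. Replicate numbers did not pair the samples, since the 24 correlations of same-numbered deviations ran from -0.14 to 0.18 with 2 above 0.1.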

Additional observations from a re-analysis of the deposited data

Results flagged for a closer look

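In the model without a covariate, 1272 genes passed the test of the difference in RBX effect between diabetic and non-diabetic mice. The same test passed for the highest interactions of Igsf9 (3.47), Sost (3.06), Npnt (2.76), Ptprz1 (2.76), Krtap12-1 (2.71), Cacnb2 (2.67), Ldb3 (2.65), Zdhhc23 (2.60), Efhd1 (2.60), Sphkap (2.57), Mylk4 (2.54), Akap6 (2.45), Myoz2 (2.36), Chmp4c (2.30) and Lratd1 (2.28). It also passed for the lowest, those of Kif26a (-3.46), Ear3 (-2.54), Apoe (-2.54), F10 (-2.48), Chil3 (-2.37), Clec4e (-2.35), Rbp7 (-2.31), Rbfox1 (-2.27), F7 (-2.21), Lrrn4 (-2.20), Fxyd3 (-2.14), Depp1 (-2.01), Osgin1 (-1.98), Igfbp3 (-1.85) and Fcor (-1.84). Of these 30 interactions 17 rest on a group with low signals. Of 150 named genes past the threshold, all missed it with the cre covariate and 98 with the Actb ratio. The part of these array measures and that of the groups cannot be told apart.

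In 344 groups of 4 arrays checked for a value far from the other 3, 17 had one, and chance gives about 5%. In the diabetic RBX group these were Lratd1 at 1245.2 in mouse 1 (others 676.3 to 694.9), F10 at 1178.6 in mouse 2 (641.9 to 720.9), Eng at 5111.5 in mouse 2 (7439.8 to 7771.1), Plin2 at 25985.5 in mouse 4 (21107.4 to 21598.7), Noct at 1737.7 in mouse 4 (2320.3 to 2387.7) and Rbm39 at 14527.5 in mouse 4 (12524.7 to 12854.8). In the diabetic group they were F10 at 1871.5 in mouse 4 (879.5 to 950.2) and H2-Ab1 at 7198.6 in mouse 1 (9694.4 to 9942.4). In the non-diabetic RBX group Bcl6b was at 1302.9 in mouse 4 (729.7 to 793.8).

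In the non-diabetic group, mouse 3 stood apart for 6 genes. It had Sost at 7696.2 (others 14734.3 to 14983.4), Efhd1 at 10059.5 (17744.3 to 19259.1), Ryr2 at 557.7 (1256.4 to 1320.6) and the mast cell protease Cma1 at 304.9 (601.2 to 620.8), all low. It had Etfb at 9286.9 (7149.6 to 7358.3) and Ccl9 at 13936.3 (7841.7 to 8867.1), both high. Its array also had the highest log2 cre signal of the group, 17.93 (others 17.26 to 17.49). The same held for log2 bioB, 12.66 (11.73 to 12.06), and the log2 Actb ratio, 1.32 (0.85 to 1.02). The part of these array measures in the 6 genes was not tested. Mouse 4 of that group had Clock at 5981.1 (3504.5 to 3767.6) and the non-coding Tug1 at 7145.9 (5948.2 to 6082.1).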

How the results depend on the processing

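The count of 1272 for the interaction of diabetes and RBX lay between 1001 and 1805 under 11 alternatives without a covariate that kept all arrays, among them 1382 with the replicate block. The block gave 5 and 3517 calls for RBX in diabetic and non-diabetic mice, and the replicate numbers do not pair the mice. With the cre signal as a covariate it was 0, although 1265 of the 1272 genes kept their sign, their median size being 0.60 against 0.85 and their median SE 0.28 against 0.21. With the Actb ratio it was 341, of which 305 were among the 1272. Leaving out single arrays gave 771 (without diabetic mouse 3, 759 of them among the 1272) to 1527 (without diabetic mouse 1). For the RBX effect in diabetic mice the count of 5 became 15 with quantile normalization, 13 with the stricter filter, 2 with the mean over probe sets, 8 with all probe sets apart, 1 without the intensity trend, 36 with array weights, 16 with the cre covariate and 1 with the Actb ratio, and 1 to 15 without single arrays. For the RBX effect in non-diabetic mice the count of 3494 became 5351 with all probe sets apart, 0 with the cre covariate and 174 with the Actb ratio, and 2668 to 3541 without single arrays. Without non-diabetic mice 1 and 2 together, chosen after their Ighm signal was seen, the 3 counts were 464, 3 and 1864, and 72 of 147 named genes past the threshold that were measured stayed past it, with no change of sign. Of 150 named genes past the threshold, 150 missed it with the cre covariate, 98 with the Actb ratio and 59 under at least 1 other alternative. The sign turned for Gsn with the mean over probe sets (0.27) and for Ctsb with the cre covariate (0.0102). The cause was not tested. Of 216 further probe sets of 109 named genes, 190 had the same sign, and Fads2 and Gsn (3.69) had one with the opposite sign at an unadjusted p under 0.05.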
